A study of Mus musculus with 12 samples.

Results

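The genes described here are 31 genes of sterol and fatty acid synthesis and of the SREBP system that regulates them, chosen by symbol from a table of 36400 genes measured in mouse dorsal skin. All 31 were in the table and all passed the filter on low values (a mean of at least 0.1 FPKM, fragments per kilobase of transcript scaled to the fragments of the library, over the 12 libraries). They comprised 18 sterol enzymes (7 of the mevalonate arm, 3 from squalene to lanosterol and 8 from lanosterol to cholesterol), 5 regulators and sterol transfer genes, 5 fatty acid synthesis genes and 3 desaturases. RNA was taken on day 30 from the dorsal skin of female BALB/c mice that were 6 weeks old when obtained. The backs of all mice had been shaved and treated with hair removal cream, and were shaved again on day 24. In the control group only the vehicle, acetone with olive oil, was applied. DNCB mice received 2,4-dinitrochlorobenzene, a hapten that produces an atopic dermatitis-like skin inflammation, in 4 sensitizing and 6 challenging applications. The scMSC and scivMSC mice received the same DNCB schedule together with 4 doses of human umbilical cord mesenchymal stem cells (MSCs) from day 13 to day 25. In scMSC mice the cells were injected subcutaneously beside the lesion, and in scivMSC mice each dose was divided between that site and the tail vein. MSCs were therefore given while DNCB challenge continued, and no group received MSCs without DNCB. Each of the 4 groups had 3 libraries, and the labels do not say that each library came from another mouse, so p-values measure the spread between these libraries. Total estimated counts were 63877153 to 75134001 per library.

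Sterol regulatory element-binding proteins are membrane-bound transcription factors. When membrane sterol is low, the escort protein Scap carries them to the Golgi, where site proteases release the part that enters the nucleus, and when sterol is high the Insig proteins hold Scap in the endoplasmic reticulum. Srebf2 encodes the form best known for cholesterol synthesis and Srebf1 the form best known for fatty acid synthesis. In skin, newly made cholesterol and fatty acids are used for the barrier lipids of the epidermis and for sebum, which sebaceous glands produce.

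Promoters of 25 of the 31 genes, 32 entries in all, were found in the RefSeq promoter table (GRCm38.p6, 250 bases before to 50 after the gene start), and Sqle, Scd2, Fdft1, Fdps, Stard4 and Fads1 were not matched. In these 300 bases 4 motifs were searched on both strands. The sterol regulatory element core, TCACNCCAC, was in 3.12% of the member entries and in 1.24% of all 32851 entries, and the only member with a match was Hmgcs1. The CCAAT box, bound by NF-Y, a factor known to work beside SREBPs, was in 68.8% of the member entries and in 37.4% of all entries. The GC box GGGCGG was in 78.1% and 35.7% and the E-box CANNTG in 75.0% and 72.3%. These matches describe letters in these windows and not factor binding.

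The bases before the start are shown for 4 of the genes on which the results turn, because they differ in how many of these letters they hold. Capitals mark the sterol regulatory element core and each CCAAT box (CCAAT, or ATTGG on the other strand). Sequences run 5′ to 3′ on the strand of the gene, are from RefSeq, build GRCm38.p6, and cover the 250 bases before the RefSeq start. For Insig1, 49 of these 250 lie inside the gene as the deposited table bounds it, and the 201 others are shown.
Hmgcs1, chr13:119690101-119690350, plus strand: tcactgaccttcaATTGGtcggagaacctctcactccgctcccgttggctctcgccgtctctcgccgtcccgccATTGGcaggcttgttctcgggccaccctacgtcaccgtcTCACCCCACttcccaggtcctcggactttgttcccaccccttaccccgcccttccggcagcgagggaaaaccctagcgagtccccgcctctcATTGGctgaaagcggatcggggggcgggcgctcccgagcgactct
Mvd, chr8:122443423-122443672, minus strand: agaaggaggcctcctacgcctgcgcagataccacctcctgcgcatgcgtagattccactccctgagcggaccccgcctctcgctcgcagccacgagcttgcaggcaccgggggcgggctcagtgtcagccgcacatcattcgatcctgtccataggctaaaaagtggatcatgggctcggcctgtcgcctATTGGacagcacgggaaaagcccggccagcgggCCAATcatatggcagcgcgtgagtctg
Fasn, chr11:120824548-120824797, minus strand: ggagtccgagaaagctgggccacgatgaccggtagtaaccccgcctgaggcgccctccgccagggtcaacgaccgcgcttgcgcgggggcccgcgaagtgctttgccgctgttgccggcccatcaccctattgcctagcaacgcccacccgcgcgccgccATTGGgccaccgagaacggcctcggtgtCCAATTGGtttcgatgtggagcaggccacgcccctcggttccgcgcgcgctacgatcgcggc
Insig1, chr5:28071162-28071362, plus strand: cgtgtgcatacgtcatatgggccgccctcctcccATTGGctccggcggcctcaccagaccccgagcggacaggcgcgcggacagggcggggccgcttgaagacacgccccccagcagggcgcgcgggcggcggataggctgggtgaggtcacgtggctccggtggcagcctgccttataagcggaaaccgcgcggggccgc
Counted from the RefSeq start, Hmgcs1 held the element core from 137 to 129 bases before it and 3 CCAAT boxes, of which the nearest began 45 bases before it. Fasn also held 3 CCAAT boxes, of which those beginning 62 and 59 bases before the start shared 2 bases. Mvd held 2, beginning 60 and 27 bases before the start, and Insig1 held 1, beginning 216 bases before it. The Insig1 count covers only the 201 bases shown and leaves out the 49 nearest the start. In the coordinates of the deposited table these genes lie at chr13:119690379-119708260 (Hmgcs1, plus strand), chr8:122433601-122443422 (Mvd, minus strand), chr11:120805846-120824547 (Fasn, minus strand) and chr5:28071363-28078662 (Insig1, plus strand).

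Replicate 3 of scivMSC stood apart from the other scivMSC libraries in sterol enzymes and in some cell markers. It had the highest level of its group for 16 of the 31 members and the lowest for 12. Of the 18 sterol enzymes, 12 were highest in it. The median of these 18 was 0.19 above the control mean on the log2 FPKM scale, against -0.26 and -0.22 in replicates 1 and 2. In replicate 3 the summed sebocyte markers were at 647 FPKM against 452 and 417, and the summed fibroblast markers at 124 FPKM against 699 and 946. Replicate 2 of scivMSC stood apart in stress keratinocyte markers (Krt6a, Krt6b, Krt16 and Sprr1b). Their sum was 3940 FPKM there, against 573 and 580 in replicates 1 and 3 and 6650 to 8380 in DNCB libraries. Replicate 2 was the lowest scivMSC library for 15 of the 31 members. Control replicate 1 was the lowest control library for 27 of the 31 members. Keratinocyte genes marked the tissue in every library, with Krt14 (basal layer) at 733 FPKM or more and Krt10 (upper layers) at 2060 FPKM or more.

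**Figure D1:**
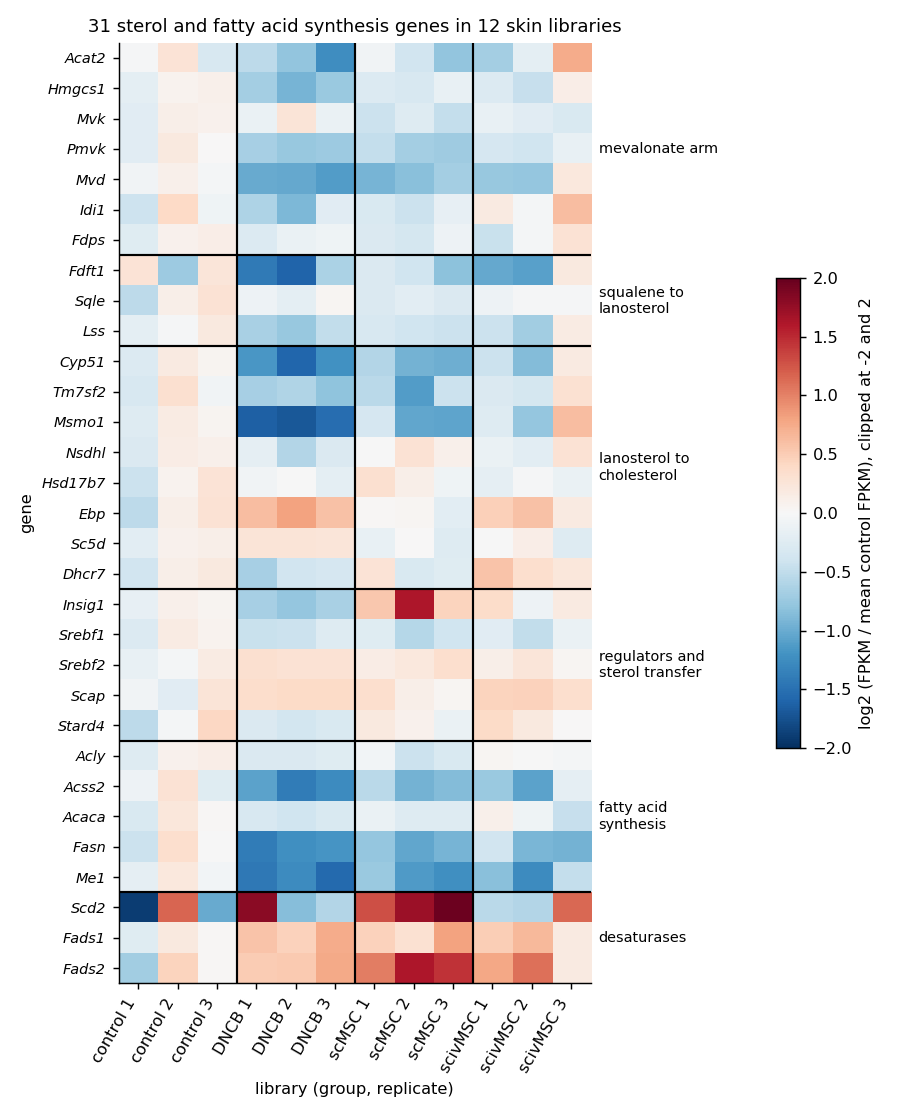
Level of each of the 31 genes (rows, by role) in each of the 12 libraries (columns), as log2 of FPKM over the mean of the 3 control libraries. Most sterol and fatty acid synthesis rows are blue in the DNCB columns, most deeply Msmo1, Cyp51, Fasn and Me1, while Ebp and the desaturases Fads1 and Fads2 are red there.

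The first comparison asked how the pathway differed between DNCB-inflamed and vehicle-treated skin. Of the 31 members, 16 fell and 0 rose (edgeR quasi-likelihood test, Benjamini-Hochberg adjusted p under 0.05 over all 21890 genes tested). Among all genes tested, 12.4% fell and 12.9% rose. The members' median log2 fold change was -0.56, against 0.02 over all genes, and 24 of 31 were negative. At an unadjusted p under 0.05, 2 members were higher and 20 lower, against 8116 of all 21890 genes in either direction. DESeq2 called 0 higher and 20 lower, against 3415 higher and 3459 lower over all genes. Scaling by library size alone moved the median of all genes from 0.02 to 0.20 on the log2 scale and the share of higher calls over all genes from 51.1% to 67.3%. Under that scaling 9 members fell and 2 rose, and with limma on FPKM 10 fell and 3 rose (Ebp, Fads1 and Scap). Over all genes that scaling called 2062 lower and 4235 higher, and limma 2180 lower and 4494 higher. FPKM levels carry the library-size scaling, and fold changes below come from the counts with TMM scaling. In FPKM, 13 members had every DNCB library below every control library, against 16.1% of all genes, and 6 had every DNCB library above, against 31.7%. Past a 2-fold difference, 7 of the 31 members passed, against 14.2% of all genes in either direction.

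In the mevalonate arm, which builds the isoprenoid units of sterols from acetyl-CoA, 3 of 7 genes fell and all 7 fold changes were negative. Hmgcs1, the cytosolic HMG-CoA synthase, was at 55.1, 66.3 and 67.8 FPKM in control, 39.2, 33.1 and 37.7 in DNCB, 51.9, 50.5 and 56.6 in scMSC and 52.3, 46.0 and 68.8 in scivMSC libraries. Its DNCB libraries lay below all others. It fell by 0.97 ± 0.17 (SE) on the log2 scale between control and DNCB (adjusted p = 0.00289). Mvd, the decarboxylase that forms isopentenyl diphosphate, was at 32.4, 36.4 and 33.1 FPKM in control, 16.9, 16.7 and 15.7 in DNCB, 17.9, 19.1 and 21.3 in scMSC and 20.1, 19.8 and 39.2 in scivMSC libraries. It fell by 1.23 ± 0.26 in DNCB (adjusted p = 0.0059), and 1 of the 3 scivMSC libraries, replicate 3, exceeded the control range. Pmvk, phosphomevalonate kinase, was at 28.6, 38.4 and 33.8 FPKM in control, 21.3, 19.9 and 20.4 in DNCB, 24.2, 20.9 and 20.6 in scMSC and 26.6, 25.6 and 30.2 in scivMSC libraries. It fell by 0.90 ± 0.14 in DNCB (adjusted p = 0.00153), with no overlap between control and DNCB libraries. The 4 members that did not pass by edgeR, Acat2, Mvk, Idi1 and Fdps, had log2 fold changes of -1.01, -0.17, -0.74 and -0.34. Acat2, which joins acetyl-CoA units at the start of the arm, came closest after Idi1 (isopentenyl diphosphate isomerase), with adjusted p of 0.0664 and 0.0543, and both were called lower by DESeq2 and by edgeR with the filter raised to 1 FPKM.

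From squalene to lanosterol, 2 of 3 genes fell. Fdft1, squalene synthase, was at 26.5, 13.2 and 25.8 FPKM in control, 8.2, 7.22 and 14.1 in DNCB, 17.9, 16.6 and 12.4 in scMSC and 10.7, 10.3 and 25 in scivMSC libraries. Control replicate 2 lay within the DNCB range, and the fall of 1.33 ± 0.41 on the log2 scale (adjusted p = 0.0362) was lost without control replicate 1 or 3 and without DNCB replicate 1 or 2. In the gene annotation, 18.3% of the exon bases of Fdft1 overlap Ctsb on the other strand, and how the counting treated strand is not given in the sources used here. Lss, lanosterol synthase, was at 5.56, 6.31 and 7.3 FPKM in control, 4.09, 3.76 and 4.55 in DNCB, 5.13, 4.83 and 4.74 in scMSC and 4.74, 3.94 and 7.13 in scivMSC libraries. It fell by 0.81 ± 0.21 (adjusted p = 0.0173), with every DNCB library below every control library. Sqle, squalene epoxidase and a rate-controlling step of the pathway, did not pass (log2 fold change -0.26, adjusted p = 0.299).

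From lanosterol to cholesterol, 4 of 8 genes fell, and the group held both the deepest fall of the 31 genes and the most positive fold change. Msmo1, the sterol C4-methyl oxidase, was at 33.9, 45.3 and 41.9 FPKM in control, 13, 12.4 and 14.1 in DNCB, 31.9, 19.6 and 19.5 in scMSC and 33.8, 23.6 and 61.6 in scivMSC libraries. It fell by 1.80 ± 0.33 on the log2 scale, to a 3.48-fold lower level in DNCB than in control (adjusted p = 0.00342), and its DNCB libraries lay below all 9 others. Cyp51, lanosterol 14α-demethylase, was at 36.2, 49.2 and 45.4 FPKM in control, 19.4, 14.5 and 18.9 in DNCB, 29.1, 22.6 and 22.2 in scMSC and 32.2, 24 and 49.2 in scivMSC libraries. It fell by 1.49 ± 0.26 (adjusted p = 0.00269), again with the DNCB libraries below all others. Dhcr7, which carries out a final step to cholesterol, was at 8.82, 12.4 and 13.1 FPKM in control, 7.21, 8.74 and 9.1 in DNCB, 13.9, 9.22 and 9.66 in scMSC and 16.9, 14.4 and 13.4 in scivMSC libraries. It fell by 0.63 ± 0.18 (adjusted p = 0.0242) although control replicate 1 lay within the DNCB range. Tm7sf2, a sterol C14-reductase and the least abundant member, was at 3.26, 5.07 and 3.87 FPKM in control, 2.58, 2.67 and 2.34 in DNCB, 2.8, 1.87 and 3.01 in scMSC and 3.33, 3.19 and 5.05 in scivMSC libraries. It fell by 0.87 ± 0.25 (adjusted p = 0.028), and 12.1% of its exon bases are shared with Vps51 on the same strand. Exon bases are also shared by Fdps (26.7%, Gm43738, same strand), Scap (13.2%, 5830462I19Rik, other strand) and Hmgcs1 (12.1%, Gm48342, other strand). Apart from these and Fdft1, no member shares more than 9.22% with any 1 gene.

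Ebp, the sterol isomerase that acts after C4 demethylation, moved the other way in level. It was at 12.1, 18.8 and 21.3 FPKM in control, 26.6, 30.4 and 26.2 in DNCB, 17.6, 17.8 and 15.1 in scMSC and 24.1, 26.2 and 19.8 in scivMSC libraries. Every DNCB library lay above every control library in FPKM, but the fitted fold change of 0.50 ± 0.18 on the log2 scale did not pass with TMM scaling (adjusted p = 0.0694). Sc5d, the sterol C5-desaturase, had a fold change of 0.07 ± 0.13 on the log2 scale, and Nsdhl and Hsd17b7, both needed to remove C4 methyl groups, had -0.52 and -0.26. None of these 3 passed by edgeR, at adjusted p of 0.756, 0.0768 and 0.261, while DESeq2 called Nsdhl lower.

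**Figure D2:**
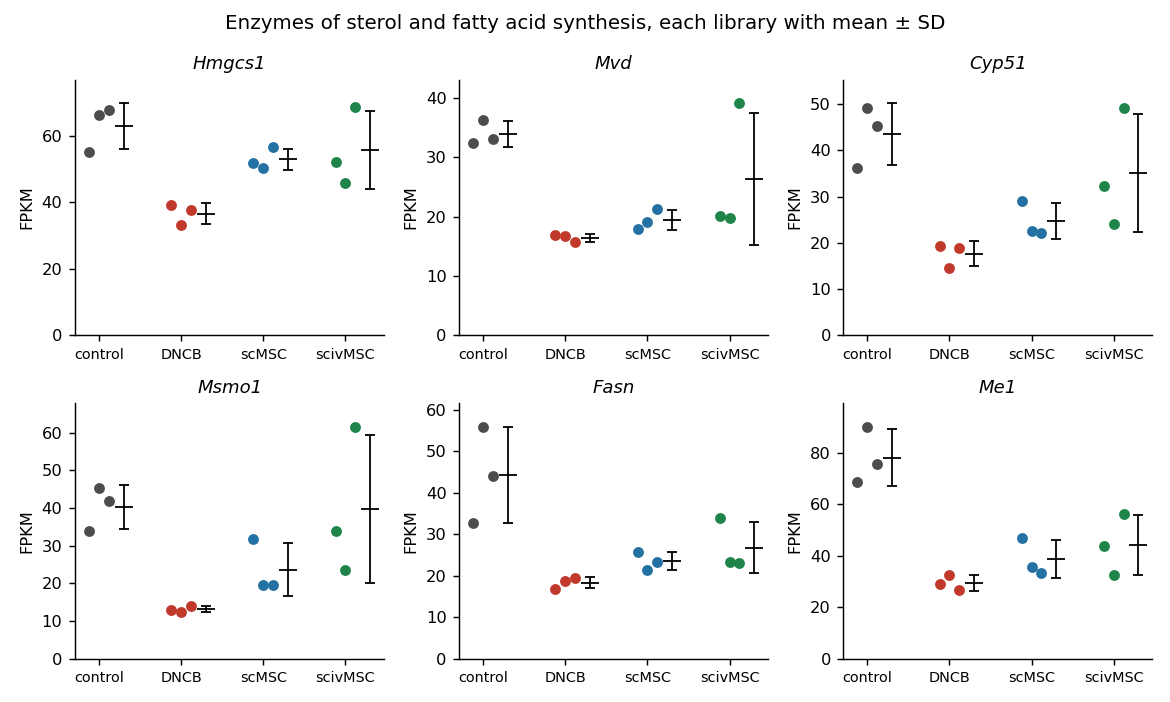
FPKM of 6 enzymes in each library (points) with the group mean ± SD over 3 libraries (black), each axis starting at 0. DNCB points lie below all control points for each of the 6, and for Mvd, Cyp51 and Msmo1 a single scivMSC point, replicate 3, sets the height of its group.

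Among the regulators and sterol transfer genes, 2 of 5 fell and the transcript of the sterol-regulating factor itself, Srebf2, did not pass. Srebf2 was at 17.8, 19.1 and 22.1 FPKM in control, 24.5, 24.1 and 24.1 in DNCB, 21.8, 22.8 and 24.9 in scMSC and 21.4, 23.3 and 20.2 in scivMSC libraries. Its fitted fold change between DNCB and control was 0.12 ± 0.10 on the log2 scale (adjusted p = 0.438), although its DNCB libraries lay above the control libraries in FPKM. Srebf1 was at 12.7, 17.1 and 16.1 FPKM in control, 11.2, 11.3 and 12.8 in DNCB, 13, 10.3 and 11.6 in scMSC and 13.1, 10.9 and 14.0 in scivMSC libraries. It fell by 0.56 ± 0.15 in DNCB (adjusted p = 0.0182), a call that was lost without DNCB replicate 1 or 2, with library-size scaling and with limma. Scap was at 12.0, 10.8 and 15.0 FPKM in control, 16, 16.4 and 16.5 in DNCB, 15.9, 13.6 and 12.9 in scMSC and 17.2, 17.4 and 15.9 in scivMSC libraries. Its fold change was 0.19 ± 0.11 on the log2 scale (adjusted p = 0.244), and it was called higher by limma on FPKM. Insig1, which retains Scap and is itself a target of SREBPs, was at 14.7, 17.7 and 17.2 FPKM in control, 10.4, 9.64 and 10.5 in DNCB, 23.9, 50.6 and 22.6 in scMSC and 21.4, 15.4 and 18.7 in scivMSC libraries. It fell by 0.89 ± 0.29 in DNCB (adjusted p = 0.0478), with all DNCB libraries below the others, and this call was lost without each of 9 of the 12 libraries. Stard4, a cytosolic sterol carrier, had a fold change of -0.49 ± 0.18 on the log2 scale and did not pass by edgeR (adjusted p = 0.0752), while DESeq2 called it lower, as did edgeR with the filter raised to 1 FPKM.

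**Figure D3:**
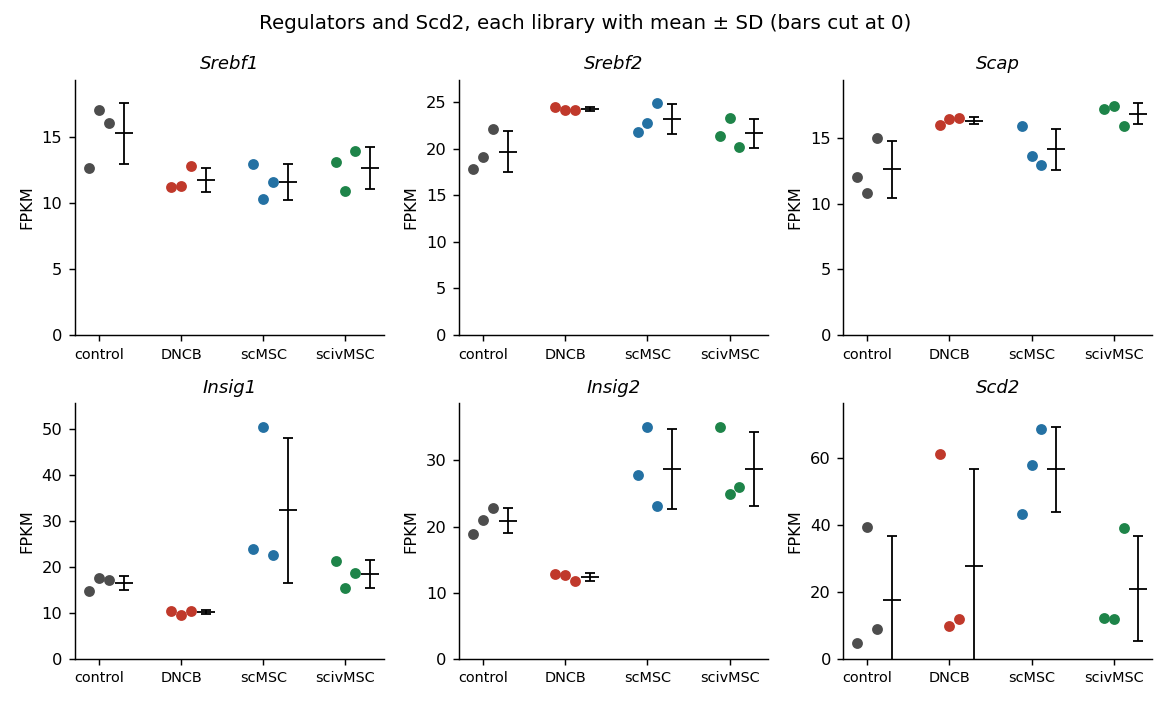
FPKM of Srebf1, Srebf2, Scap, Insig1, Insig2 and the desaturase Scd2 in each library (points) with the group mean ± SD over 3 libraries (black, cut at 0), each axis starting at 0. Insig1 and Insig2 are lowest in DNCB, scMSC replicate 2 stands at 50.6 FPKM for Insig1, and Scd2 scatters within the control, DNCB and scivMSC groups.

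All 5 fatty acid synthesis genes fell in DNCB, 3 of them past 2-fold, with a median log2 fold change of -1.43. Me1, the cytosolic malic enzyme that supplies NADPH and the member with the highest control level, was at 68.7, 90.2 and 75.7 FPKM in control, 29.1, 32.7 and 26.6 in DNCB, 47.0, 35.7 and 33.4 in scMSC and 43.8, 32.7 and 56.1 in scivMSC libraries. It fell by 1.60 ± 0.22 on the log2 scale (adjusted p = 0.00112). Fasn, fatty acid synthase, was at 32.8, 55.9 and 43.9 FPKM in control, 16.8, 18.8 and 19.5 in DNCB, 25.8, 21.5 and 23.3 in scMSC and 33.8, 23.4 and 23.0 in scivMSC libraries. It fell by 1.45 ± 0.20 (adjusted p = 0.00112), a 2.74-fold lower level. Acss2, which makes acetyl-CoA from acetate, was at 5.29, 6.91 and 4.81 FPKM in control, 2.7, 2.16 and 2.37 in DNCB, 3.92, 2.93 and 3.11 in scMSC and 3.38, 2.69 and 4.98 in scivMSC libraries. It fell by 1.43 ± 0.25 (adjusted p = 0.00258). For these 3 genes no DNCB library overlapped the control range. Acly (ATP citrate lyase) and Acaca (acetyl-CoA carboxylase) fell by less, 0.45 and 0.53 (adjusted p = 0.0179 and 0.0264), and both calls were lost with library-size scaling and with limma.

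The 3 desaturases had positive fold changes of 0.44 (Scd2), 0.40 (Fads1) and 0.42 (Fads2) on the log2 scale in DNCB against control. By edgeR 0 of the 3 passed, 1 of them (Fads1) had an unadjusted p under 0.05, DESeq2 called 0, and limma and library-size scaling called Fads1 higher. Scd2, a stearoyl-CoA desaturase with close paralogs in the same gene cluster, was the most variable member. Its level was 4.72, 39.4 and 8.76 FPKM in control, 61.3, 9.81 and 11.8 in DNCB, 43.3, 58.0 and 68.6 in scMSC and 12.1, 11.8 and 39.0 in scivMSC libraries. Within control its highest library was 8.33 times its lowest, against a median of 1.36 over the 31 members, so its fold change had an SE of 0.88. In the control group, replicate 2, which was high for Scd2, also had the highest summed level of growing hair follicle markers, 327 FPKM against 20.5 and 13.3. In DNCB the high Scd2 library, replicate 1, had 425 FPKM of those markers against 296 and 895. The part of hair growth in Scd2 was not tested.

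Of the 16 falls, 8 kept an adjusted p under 0.05 in every alternative fit and without each single library, namely Hmgcs1, Pmvk, Mvd, Cyp51, Msmo1, Acss2, Fasn and Me1. With each library left out in turn, the number of members that fell ranged from 8, without DNCB replicate 1 or DNCB replicate 2, to 19, without control replicate 1. Lower calls over all genes were 2708 with the 12 libraries. They were 1906 and 1965 without DNCB replicates 1 and 2, and 2226 without control replicate 1.

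The next comparisons asked whether skin that received MSCs during DNCB challenge differed from untreated DNCB skin. In scMSC against DNCB, 1 of 31 members rose (Insig1) and 1 fell (Ebp). Over all genes tested, 6.95% rose and 5.77% fell. Insig1 rose by 1.72 ± 0.30 on the log2 scale (adjusted p = 0.00498), a 3.29-fold higher level, with all scMSC libraries above all DNCB libraries, and it kept an adjusted p under 0.05 in every alternative fit and without each library. Ebp fell by 0.69 ± 0.18 (adjusted p = 0.0306), with all scMSC libraries below all DNCB libraries. The Ebp call was lost without each of the 6 libraries of this comparison, and without scivMSC replicate 3 Msmo1 and Hmgcs1 also rose. Lower calls over all genes went from 1264 to 702, 702 and 776 without DNCB replicates 1, 2 and 3. They were 1334, 721 and 758 without scMSC replicates 1, 2 and 3. The median of the 31 fold changes was 0.27 on the log2 scale, against 0.02 over all genes, and 23 were positive. In FPKM, 14 members had every scMSC library above every DNCB library and 5 below, against 16% and 17.1% of all genes. The enzymes with the deepest falls in DNCB had fold changes in scMSC of 0.86 ± 0.33 (Msmo1), 0.51 ± 0.26 (Cyp51), 0.41 ± 0.22 (Me1) and 0.38 ± 0.20 (Fasn) on the log2 scale, at adjusted p of 0.119, 0.254, 0.277 and 0.281. Hmgcs1, at 0.56 ± 0.17 (adjusted p = 0.058), was called higher by DESeq2 and by limma. Past 2-fold only Insig1 passed, against 8.5% of all genes.

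In scivMSC against DNCB, 4 of 31 members rose and 0 fell. Over all genes tested, 4.56% rose and 3.6% fell. The 4 were sterol enzymes, Msmo1 (by 1.62 ± 0.33 on the log2 scale, adjusted p = 0.0169), Cyp51 (1.02 ± 0.26, adjusted p = 0.0366), Dhcr7 (0.84 ± 0.18, adjusted p = 0.0197) and Hmgcs1 (0.62 ± 0.17, adjusted p = 0.0499). For each of them all scivMSC libraries lay above all DNCB libraries. At an unadjusted p under 0.05, 15 members were higher and 0 lower, against 4973 of all 21890 genes in either direction. DESeq2 called 5 members higher and 0 lower, against 1616 higher and 1600 lower over all genes. The median fold change was 0.37 on the log2 scale, against 0.02 over all genes, and 24 of 31 were positive. In FPKM, 13 members lay wholly above DNCB and 3 wholly below, against 16.4% and 16.3% of all genes. Past 2-fold 2 members passed, against 5.46% of all genes. Without scivMSC replicate 3, Msmo1 and Dhcr7 passed and Cyp51 and Hmgcs1 did not. Without scivMSC replicate 1 only Msmo1 passed. Without DNCB replicate 1 or 2 no member passed, and without DNCB replicate 3 only Dhcr7 did. Higher calls over all genes also went from 999 to 372, 318 and 431 without DNCB replicates 1, 2 and 3. They were 333, 1069 and 482 without scivMSC replicates 1, 2 and 3. With each library left out in turn, Hmgcs1 passed only without scivMSC replicate 2. Without that library 6 members rose (Cyp51, Msmo1, Me1, Idi1, Dhcr7 and Hmgcs1). The replicate number as a block left 2 calls, Msmo1 and Dhcr7.

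**Figure D4:**
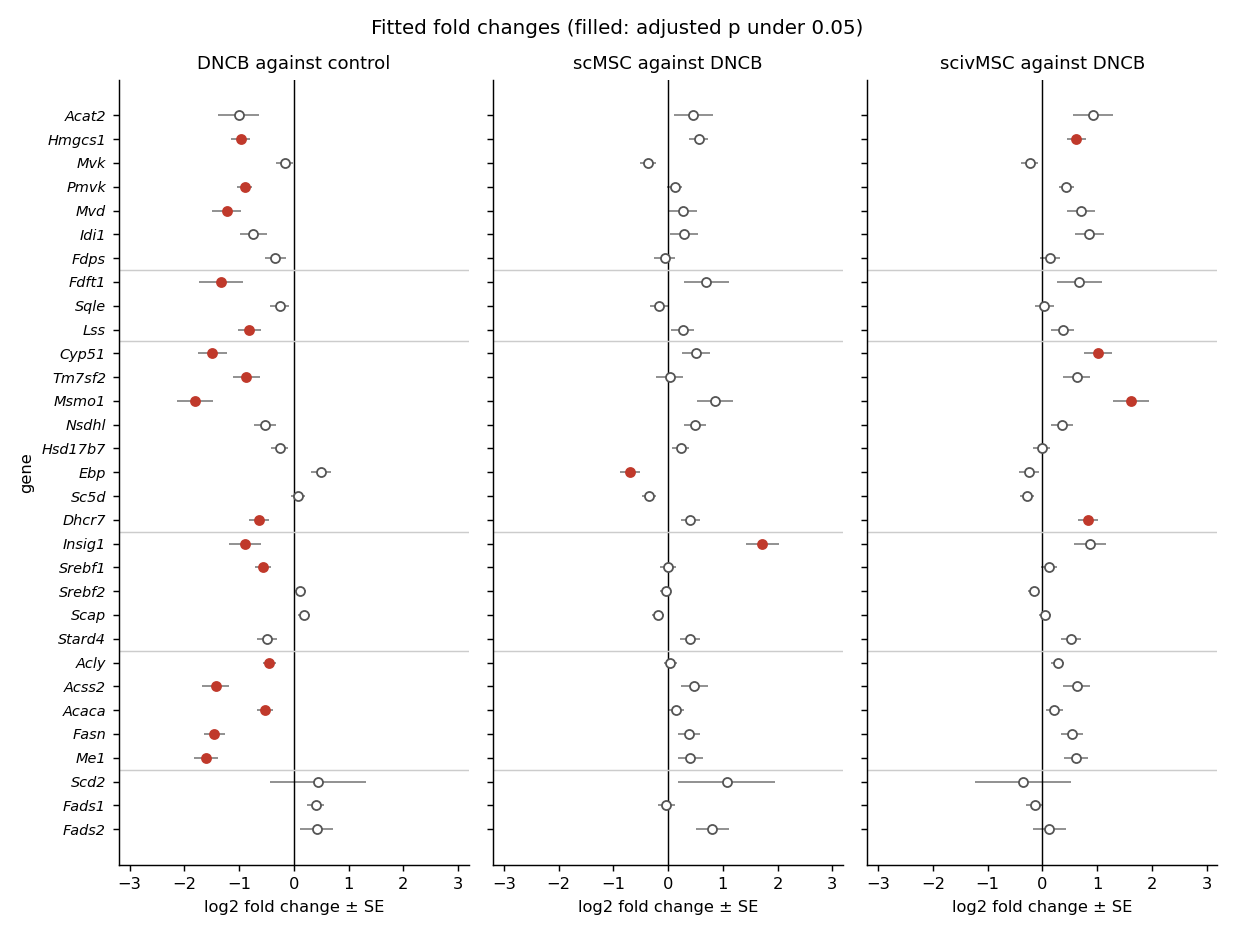
Fitted log2 fold change ± SE (horizontal axis) of the 31 genes (vertical axis, by role) in DNCB against control, scMSC against DNCB and scivMSC against DNCB, filled where the adjusted p was under 0.05. The first panel has 16 filled points, all left of 0, the second has Insig1 to the right and Ebp to the left, and the third has 4 filled points, all to the right. The MSC panels share the DNCB libraries with the first panel.

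Both MSC groups were also set against control, which shares its libraries with the first comparison. In scMSC skin 10 members were lower than in control (Mvk, Pmvk, Mvd, Cyp51, Tm7sf2, Srebf1, Acly, Acss2, Fasn and Me1) and 1 was higher (Fads2). The background was 8.12% lower and 10.4% higher. With library-size scaling and with limma, 6 members were lower and 2 higher (Fads2 and Insig1), and DESeq2 called 11 lower and the same 2 higher. Over all genes library-size scaling called 1203 lower and 3453 higher, limma 1412 and 3567, and DESeq2 2679 and 2850. Me1 was lower by 1.18 ± 0.22 and Fasn by 1.08 ± 0.20 on the log2 scale, as log2 fold changes of -1.18 and -1.08 (adjusted p = 0.00536 for both). Fads2, the delta-6 desaturase, was at 2.74, 6.08 and 4.54 FPKM in control and at 9.03, 13.7 and 12.1 in scMSC libraries, and its log2 fold change was 1.23 ± 0.30 (adjusted p = 0.0173). The Fads2 call was lost without control replicate 1, control replicate 3 or scMSC replicate 2, and with the 6 libraries of this comparison alone. Past 2-fold 3 members passed, against 9.32% of all genes. The 10 lower calls became 4 without control replicate 2, 5 without scMSC replicate 2, 3 without scMSC replicate 3 and 14 without scivMSC replicate 3. Lower calls over all genes went from 1778 to 1443, 1138, 1302 and 2247 in the same order.

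In scivMSC skin 2 members were lower than in control, Me1 (log2 fold change -0.99 ± 0.22, adjusted p = 0.0166) and Fasn (-0.91 ± 0.20, adjusted p = 0.0165), and 0 were higher. The background was 6.13% lower and 7.11% higher. At an unadjusted p under 0.05, 6 members were lower and 0 higher, against 6121 of all 21890 genes in either direction. DESeq2 called 5 lower and 0 higher, and limma called 1 member higher, Scap. Over all genes DESeq2 called 2241 lower and 2074 higher, and limma 2997 higher. Neither Me1 nor Fasn passed 2-fold, against 6.85% of all genes. This count rested on scivMSC replicate 3, without which 10 members were lower (Hmgcs1, Pmvk, Mvd, Fdft1, Lss, Cyp51, Srebf1, Acss2, Fasn and Me1), whereas without scivMSC replicate 2 there were 0 and without scivMSC replicate 1 only Fasn. Without control replicate 1 or control replicate 3 there were 4. Lower calls over all genes went from 1342 to 624, 566 and 1666 without scivMSC replicates 1, 2 and 3. They were 745 and 1511 without control replicates 1 and 3.

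Between the injection routes, 0 of 31 members passed by edgeR, against 0.00457% of all genes in either direction. At an unadjusted p under 0.05, 8 members differed, 2 higher and 6 lower in scMSC, against 1642 of all 21890 genes. DESeq2 and limma also called 0 members. Over all genes DESeq2 called 73 higher and 66 lower, and limma 0 higher and 2 lower. The median fold change of scMSC against scivMSC was -0.15 on the log2 scale, and single members ranged from -0.76 ± 0.32 (Msmo1) to 1.42 ± 0.90 (Scd2). Insig1 differed by 0.85 ± 0.29 with an adjusted p of 0.613. Calls made in 1 MSC group against DNCB and not in the other are therefore not shown to differ between the routes.

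Other listed genes of the pathway were tested in the same fit. Insig2, the other retention gene, was at 18.9, 21 and 22.8 FPKM in control, 12.8, 12.6 and 11.7 in DNCB, 27.8, 35.1 and 23.1 in scMSC and 35.1, 24.9 and 26.0 in scivMSC libraries. It fell by 0.94 ± 0.18 on the log2 scale in DNCB (adjusted p = 0.00435) and rose in scMSC (1.24 ± 0.18, adjusted p = 0.00264) and in scivMSC against DNCB (1.22 ± 0.18, adjusted p = 0.0056). It was thus lowest in DNCB, as Insig1 was, and the 3 comparisons share the DNCB libraries.

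Of 12 other synthesis enzymes, 8 fell in DNCB. The 3 most abundant were Scd1, a stearoyl-CoA desaturase, and the elongases Elovl6 and Elovl1. Scd1 was at 430.0, 543 and 467 FPKM in control, 77.5, 67.4 and 70.6 in DNCB, 432, 275 and 244 in scMSC and 431, 237 and 488 in scivMSC libraries. It fell by 2.93 ± 0.31 on the log2 scale (adjusted p = 0.000489) and rose by 2.16 ± 0.30 in scMSC and 2.45 ± 0.30 in scivMSC against DNCB (adjusted p = 0.00231 and 0.00324). Elovl6 fell by 3.15 ± 0.42 in DNCB (adjusted p = 0.000951) and rose by 2.52 ± 0.41 and 3.18 ± 0.42 in scMSC and scivMSC (adjusted p = 0.00387 and 0.00415). Elovl1 fell by 0.97 ± 0.26 in DNCB (adjusted p = 0.0196) and passed in neither MSC group against DNCB. In scMSC against DNCB 5 of the 12 rose (Lbr, Aacs, Acacb, Scd1 and Elovl6), and in scivMSC against DNCB 6 did. The falls of Scd1 and Elovl6 were larger than that of any of the 31 members, whose range ended at -1.80.

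Of 8 genes of the LXR arm and of sterol export, which respond to sterol excess or move sterol out of cells, 2 rose and 3 fell in DNCB. The cholesterol exporters Abca1 and Abcg1 rose by 0.74 ± 0.24 and 0.88 ± 0.29 on the log2 scale (adjusted p = 0.044 and 0.0451). The receptor Nr1h3, the sterol 27-hydroxylase Cyp27a1 and the cholesterol-esterifying Soat1 fell by 0.62, 1.24 and 1.04 (adjusted p = 0.0421, 0.00544 and 0.0114). Abca1 was at 7.55, 8.01 and 14.3 FPKM in control and at 18.5, 20.7 and 16.8 in DNCB libraries. In scMSC against DNCB 0 of the 8 passed by edgeR, DESeq2 or limma, with 2 at an unadjusted p under 0.05, and in scivMSC against DNCB Cyp27a1 and Soat1 rose.

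Markers of skin cell types that make lipid were counted in the same fit. In bulk skin, fewer cells of a type and less RNA per cell cannot be told apart. Of 9 sebocyte markers, 8 fell in DNCB and 1, Krt79, rose, with a median log2 fold change of -3.23. Their summed level was 287 to 383 FPKM in control, 182 to 216 in DNCB, 258 to 387 in scMSC and 417 to 647 in scivMSC libraries. Krt79 was the most abundant of the list, at 168 to 180 FPKM in DNCB, so that most of the DNCB sum came from it. It was at 85.2 to 117 FPKM in control, 134 to 169 in scMSC and 214 to 272 in scivMSC libraries. Of the 9 it was also the only 1 called higher in scivMSC than in control, so the scivMSC sums are raised by it too. Awat1, a wax synthase of sebum, was at 24.1, 28.9 and 23.6 FPKM in control and at 2.22, 0.975 and 0.641 in DNCB libraries. In each MSC group 8 of the 9 rose against DNCB. Of 9 adipocyte markers, 5 fell in DNCB (Plin1, Cidec, Cfd, Retn and Lipe), and the summed level was 515 to 658 FPKM in control, 216 to 403 in DNCB, 402 to 854 in scMSC and 580 to 1080 in scivMSC libraries. Against DNCB, 2 of the 9 rose in scMSC (Cfd and Lipe), and in scivMSC 5 rose (Cidec, Cfd, Retn, Lipe and Pck1) and 1, Lep, fell. The part of these cell types in the members' levels was not tested.

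Other markers also moved. Of 6 skeletal muscle markers, 4 fell in DNCB (Acta1, Ckm, Tnnt3 and Mylpf), and their sum was 13500 to 19500 FPKM in control and 3690 to 9570 in the 9 other libraries. Skeletal muscle markers had 0 passing in either MSC group against DNCB by edgeR, DESeq2 and limma, with 0 at an unadjusted p under 0.05. All 5 neutrophil markers (Csf3r, Cxcr2, S100a8, S100a9 and Retnlg), all 4 stress keratinocyte markers (Krt6a, Krt6b, Krt16 and Sprr1b) and all 5 markers of dividing cells (Mki67, Top2a, Ccnb1, Cdk1 and Plk1) rose in DNCB. Of 6 fibroblast markers, 4 rose there (Col1a1, Col1a2, Col3a1 and Pdgfra), as did 3 of 5 basal keratinocyte markers (Krt5, Krt14 and Itga6). Neutrophil sums were 120 to 207 FPKM in control, 2450 to 3420 in DNCB and 15.8 to 177 in the MSC groups. Stress keratinocyte sums were 224 to 303 FPKM in control, 6650 to 8380 in DNCB, 219 to 581 in scMSC and 573 to 3940 in scivMSC libraries. Fibroblast sums were 232 to 346 FPKM in control, 1920 to 2230 in DNCB, 245 to 750 in scMSC and 124 to 946 in scivMSC libraries. Of 5 macrophage markers 0 passed in DNCB by edgeR, DESeq2 or limma, with 0 at an unadjusted p under 0.05. Of 5 suprabasal keratinocyte markers 0 passed by edgeR and DESeq2 and 1 by limma, with 1 at an unadjusted p under 0.05. Of 10 growing hair follicle genes 9 were in the table used, and 0 passed in DNCB against control by edgeR and DESeq2, 5 by limma, and 2 at an unadjusted p under 0.05. In scMSC against DNCB 6 of the 9 rose, with sums of 6130 to 17200 FPKM in scMSC and 296 to 895 in DNCB. In scivMSC 2 of the 9 rose by edgeR, Hoxc13 and Msx2 (sums 2350 to 5680 FPKM). DESeq2 called 4 higher there and limma 3, and 7 had an unadjusted p under 0.05 by edgeR. In each MSC group all 9 had every library above every DNCB library, against 16% (scMSC) and 16.4% (scivMSC) of all genes. Between the routes 0 of the 9 passed. The part of these cells in the members' levels was not tested.

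**Figure D5:**
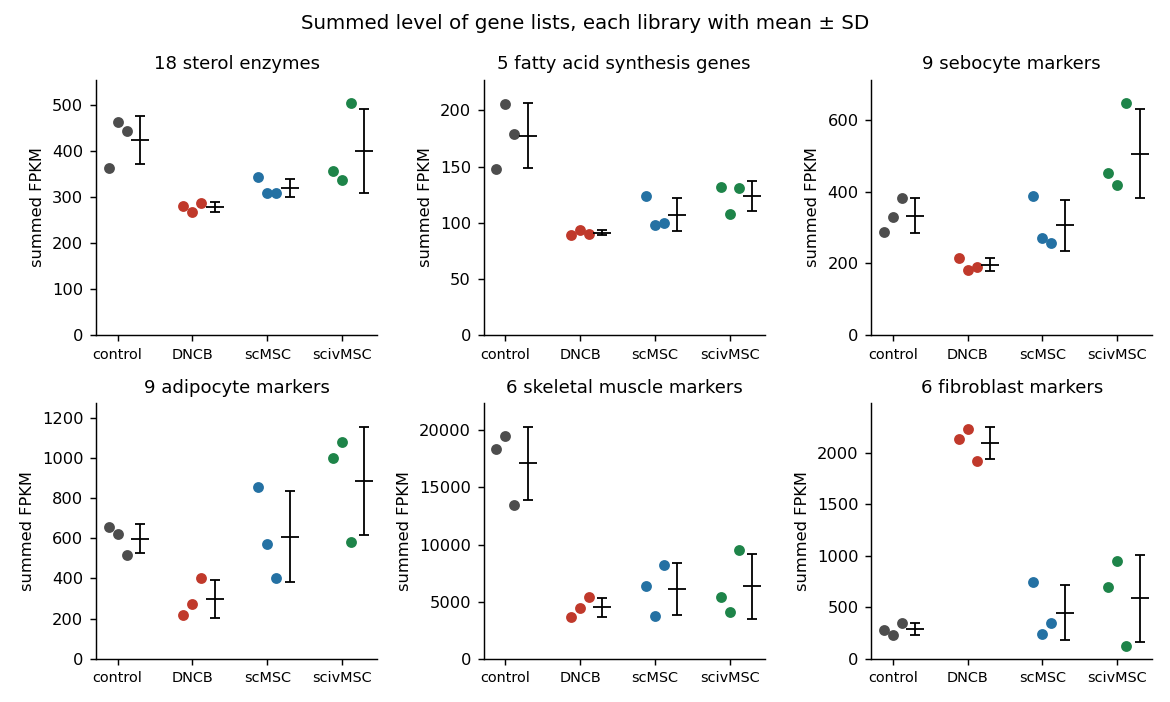
Summed FPKM in each library (points) with the group mean ± SD over 3 libraries (black) for the 18 sterol enzymes, the 5 fatty acid synthesis genes and 4 marker lists, each axis starting at 0. DNCB points are lowest for the sterol enzymes, at 268 to 288 FPKM against 364 to 463 in control, for the fatty acid genes and for sebocyte markers, whereas fibroblast markers are highest in DNCB. The sebocyte sum includes Krt79, which rose in DNCB while the 8 other markers fell.

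Summed over members, the 18 sterol enzymes were at 364 to 463 FPKM in control, 268 to 288 in DNCB, 309 to 343 in scMSC and 337 to 505 in scivMSC libraries. The 5 fatty acid synthesis genes were at 148 to 206 FPKM in control, 89.3 to 93.8 in DNCB, 97.6 to 124 in scMSC and 108 to 132 in scivMSC libraries. In the sum of the fatty acid genes no DNCB-exposed library, with or without MSCs, reached the control range. Taken singly, 4 of the 5 genes overlapped the control libraries in scivMSC, all but Me1, and 2 did in scMSC. In the sum of the sterol enzymes the only DNCB-exposed library above the lowest control library was scivMSC replicate 3, at 505 FPKM. For the 12 members without a call by edgeR in any comparison over the 12 libraries (Sqle, Fdps, Hsd17b7, Sc5d, Srebf2, Scap, Stard4, Nsdhl, Idi1, Acat2, Scd2 and Fads1), mean FPKM of the DNCB-exposed groups was within 2-fold of control except for Scd2. In DNCB against control DESeq2 called Acat2, Idi1, Stard4 and Nsdhl of these lower, and limma called Fads1 and Scap higher.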

How the data were processed

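Dorsal skin RNA was sequenced in 12 libraries, 3 for each of 4 groups. The authors deposited 1 table with FPKM and estimated counts of 36400 genes. Per the labels, RNA was extracted with TRIzol, and the submitters' processing notes name Bowtie 0.12.2, HISAT2 2.0, StringTie 1.3.0 and the build mm8, without saying what each was used for. Gene positions in the table nevertheless equal GRCm38 (GENCODE M21) for 27 of the 31 genes, and strandedness is not given in the sources used here. The deposited FPKM carry a scaling by library size. The deposited estimated counts are whole numbers whose low values (1 to 16) are multiples of 4 in 40.6% to 43.0% of cases, against 25% of whole numbers. What 1 count stands for is not given in the sources used here, and division by 4 was an alternative. Totals were 63877153 to 75134001 per library and replicate correlations of log values 0.928 to 0.957.

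The test was run with edgeR 4.0.16 in R 4.3.3 on the 21890 genes whose FPKM averaged 0.1 or more. TMM scaling was used, with 1 quasi-likelihood model of 4 groups and Benjamini-Hochberg adjustment over all genes tested, and a gene passed at an adjusted p under 0.05. The step was tested on simulated counts. For a single gene an exact permutation test of 3 against 3 cannot go below p = 0.1 and was not used. Alternatives were DESeq2 1.42.0, limma 3.58.1 on log2(FPKM + 0.1), other pseudocounts, scalings, filters and thresholds, 6 libraries alone, a replicate block and each library left out. The 31 members, the marker and pathway lists and the tests were chosen with earlier results of these data known. Values in each library are given for Srebf1, Srebf2, Insig1, Scap and for members that passed in DNCB against control or an MSC group against DNCB, at most 12 a comparison by size of fold change, and Ebp, Scd2 and Fads2 were added to these where a statement turned on them. Genes outside the 31 were named where a count of edgeR calls was 5 or fewer or as the most abundant of their list, and Awat1 was chosen after its values were seen. For the list of site proteases, retention and turnover genes, and for the pathway lists together, counts are not reported here. The marker lists cover sebocytes, adipocytes, growing hair follicle, basal, suprabasal and stress keratinocytes, fibroblasts, neutrophils, macrophages, skeletal muscle and dividing cells.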

Additional observations from a re-analysis of the deposited data

How the results depend on the processing

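No fold change of a passing member changed sign under any alternative. Sign changes were seen in members that did not pass, namely Mvk, Sc5d and Scd2 in DNCB against control, 5 members in scMSC against DNCB and 5 in scivMSC against DNCB. In DNCB against control 16 members passed, 7 with a 2-fold threshold as well, and 8 to 19 with each library left out. The median of the 31 fold changes there was -0.56, and with limma it was -0.36, -0.37 and -0.34 at pseudocounts of 0.1, 0.01 and 1 FPKM, since FPKM lack TMM scaling. In scMSC against DNCB 2 passed, 1 with the 2-fold threshold, 4 with the 6 libraries alone and 1 to 4 with each library left out. In scivMSC against DNCB 4 passed, 2 with the 2-fold threshold, and 0 to 6 with each library left out. In scMSC against control 11 passed, 3 with the 2-fold threshold and 5 to 15 with each library left out. In scivMSC against control 2 passed, 0 with the 2-fold threshold, 4 with DESeq2-style size factors, 5 with DESeq2 and 5 with a mean of at least 1 FPKM. With the 6 libraries alone 0 passed, and 0 to 10 with each library left out. The members' median of -0.21 there ranged from -0.43 to -0.17 with libraries left out. That range does not cover library-size scaling or limma on FPKM. In this comparison they moved the median of all genes from 0.04 to 0.21 and 0.19 (pseudocount 0.1). A members' median below 0 is therefore not shown to hold under those 2 settings. Apart from the scaling, the cause of these changes was not tested. Between scMSC and scivMSC 0 passed in every alternative. Calls over all genes also changed with the library left out, as given above.

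Replicate numbers did not pair the libraries. Deviations of same-numbered libraries correlated at -0.21 to 0.15 over 18 pairs, 1 of them over 0.1, and 4 were best with their own number. With the replicate block, 14, 2, 2, 9, 2 and 0 members passed in the comparisons in the order above.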
